A study of Mus musculus with 6 samples.

Results

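The genes described here encode the subunits of the mitochondrial respiratory chain and of ATP synthase, measured in hearts of mice without adrenal glands and of sham-operated mice. They were taken from the arrays by name: every noncontrol probe whose gene name in the scanner files starts with Nduf, Uqcr, Atp5 or Cox followed by a digit of 4 to 8, or is Sdha, Sdhb, Sdhc, Sdhd, Cyc1 or Cycs, with Cox8b left out. This gave 116 of 41174 probes, for 83 of 28785 gene names. Of these names, 78 belong to subunits: 36 of complex I, 4 of complex II, 8 of complex III, 15 of complex IV and 15 of ATP synthase, also called complex V. Cycs encodes cytochrome c. The other 4 share a prefix without being subunits: Ndufaf1 is a complex I assembly factor, Cox4nb is an older name of the membrane protein complex gene Emc8, Cox7a2l acts in respiratory supercomplexes, and Atp5s is an older name of Dmac2l.

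All mice were male C57BL/6, an inbred laboratory strain, with no transgene or other treatment named. In the adrenalectomized (ADX) group the adrenal glands, the main source of corticosterone and aldosterone, had been removed at 1 month of age. The sham group, labelled Non-ADX, had a sham operation. The protocol puts the collection of hearts 6 months after surgery, but a separate label gives 6 months as the age of the animals, which leaves the age uncertain. Each group had 3 hearts, which the design text calls biological replicates, with 1 single-colour Agilent array of 60-base probes per heart. The number of arrays limits the precision of every value.

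The respiratory chain passes electrons from NADH through complex I, and from succinate through complex II, to ubiquinone, complex III, cytochrome c, complex IV and oxygen. Complexes I, III and IV pump protons across the inner membrane, and complex V uses their return to make ATP. All subunits of complex II, and most of those of the other complexes, come from nuclear genes, while the remaining core subunits come from mitochondrial DNA. The heart muscle is packed with mitochondria, and complex IV has heart and muscle forms of some subunits. No probe carried one of the listed names of a mitochondrially encoded subunit, so all levels here are those of nuclear genes.

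Levels are given as the log2 of the processed spot intensity minus the 75th percentile of its array, so that 0 is that percentile and an increase of 1 is a doubling. Differences are adrenalectomized minus sham on this scale. A probe was tested where, in 1 group or both, each of the 3 arrays read it well above background, a gene was read from its brightest tested probe, and limma adjusted p-values over all 16948 genes tested. By this rule 82 of the 83 genes were tested. The exception was Cox8c, a testis form of a complex IV subunit, whose probe was not well above background on any array of either group, so no fold is given. Another 3 genes were fitted on 5 arrays, since the spot of sham replicate 1 was flagged as an outlier: Uqcrh, Atp5e and Atp5s. The markers of heart muscle cells fit the label of the tissue, with 12 of 12 tested.

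No gene of the respiratory chain or ATP synthase passed an adjusted p of 0.05. Over all genes 5 passed as higher (0.0295%) and 2 as lower (0.0118%), or 7 in either direction (0.0413%). At an unadjusted limma p under 0.05, 0 of the 82 genes were higher, against 6.27% of all genes, and 7 were lower, a share of 8.54% against 5.99% of all genes. The groups did not overlap for 11 genes with all adrenalectomized values under all sham values, or 13.4% against 7.95% of all genes, and for 0 genes in the other direction, against 10.4%. On the lower side the members' share under the p threshold lay near that of all genes and their share without overlap was above it, while on the higher side both shares were below those of all genes, and none of these differences in share was tested. RNA came from whole heart, in which fewer cells of a type and less RNA per cell cannot be told apart.

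The differences were small and mostly of 1 sign. Of the 82 genes, 69 had a lower mean in adrenalectomized hearts (84.1%, against 43.4% of all genes) and 13 a higher mean (against 56.6% of all genes), but with normexp background correction the split turned to 79 higher and 3 lower. The median difference over the 77 tested subunits was -0.15, with quartiles of -0.24 and -0.07, beside a median of 0.03 over all genes, and it was 0.20 with normexp. The size of these differences was close to the error of 1 gene: the median standard error of a subunit was 0.13.

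By complex, the median difference was -0.16 for the 36 subunits of complex I, 0.04 for the 4 of complex II, -0.11 for the 8 of complex III, -0.17 for 14 of complex IV and -0.17 for the 15 of complex V, and all 5 medians lay above 0 with normexp. Lower means were found for 31 of 36, 1 of 4, 8 of 8, 13 of 14 and 14 of 15 subunits in that order. Complex II stood above the other 4 in this order of medians, but it rests on 4 genes, none of which passed the test, and the difference between complexes was not tested.

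**Figure D1:**
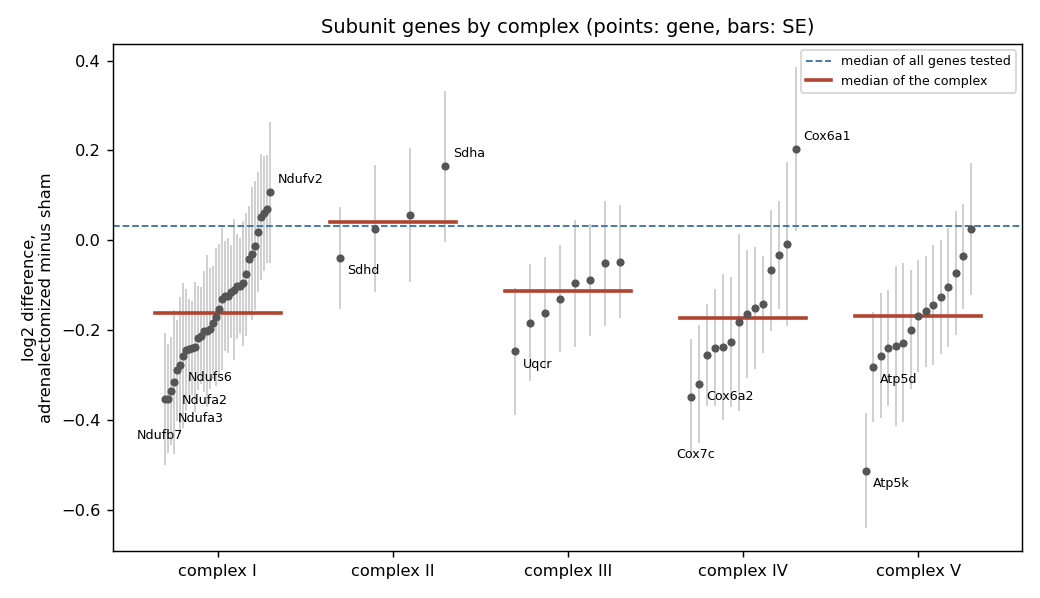
Differences (log2, adrenalectomized minus sham) of the 77 tested subunit genes by complex, with bars for the limma standard error, red lines for the median of each complex and a dashed line for the median of all 16948 genes. Most points of complexes I, III, IV and V lie below 0, Atp5k lies lowest at -0.51 and Cox6a1 highest at 0.20, but with normexp background correction 79 of the 82 genes lay above 0.

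Promoter sequences are shown here because most of these genes had differences of 1 sign under either background correction. Promoters of 250 bases before to 50 after the start were given in a RefSeq table (GRCm38.p6) for 64 of the 79 subunit and cytochrome c genes, as 69 sequences. The factor NRF1 is known for driving nuclear genes of the respiratory chain. The core GCATGCGC of its site was present on either strand in 11 of the 69 promoters (15.9%), against 2.71% of all 32851 promoters in the table. These 11 belong to Atp5g2, Atp5k, Atp5l, Cox6a1, Cycs, Ndufa11, Ndufa6, Ndufa8, Sdhb, Uqcrc1 and Uqcr11, the current name of Uqcr. A stretch of 58 bases around the core is given for 6 of them, from ATP synthase, complexes I, II and IV and cytochrome c, with the core in capitals and the flanking bases in lower case.
Atp5k (chr5:108434415-108434472, minus strand): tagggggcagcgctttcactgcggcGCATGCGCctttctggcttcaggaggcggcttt
Atp5g2 (chr15:102671055-102671112, minus strand): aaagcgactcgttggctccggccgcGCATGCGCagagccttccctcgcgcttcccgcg
Ndufa11 (chr17:56717679-56717736, plus strand): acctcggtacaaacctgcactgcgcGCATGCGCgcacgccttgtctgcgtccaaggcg
Cox6a1 (chr5:115349086-115349143, minus strand): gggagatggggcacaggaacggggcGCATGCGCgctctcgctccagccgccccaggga
Cycs (chr6:50566597-50566654, minus strand): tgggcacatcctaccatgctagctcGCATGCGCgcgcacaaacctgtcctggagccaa
Sdhb (chr4:140961192-140961249, plus strand): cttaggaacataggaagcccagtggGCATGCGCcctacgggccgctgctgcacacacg

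The core began 48 bases before the start in Atp5k, 40 in Atp5g2, 58 in Ndufa11, 160 in Cox6a1, 60 in Cycs and 54 in Sdhb. Genes with this core did not share a difference: Atp5k and Cox6a1, which both carry it, had the lowest and the highest difference of all subunits. The 10 subunit genes with the core, Cycs left aside, had 8 lower means and 2 higher, for Cox6a1 and Sdhb, with a median of -0.15, the same as that of the 77 subunits. Of the other motifs searched on both strands, the ETS site CCGGAAG was in 16 promoters (23.2%, against 8.86% of all), the YY1 site AAGATGGCG in 7 (10.1%, against 1.40%), the cyclic AMP response element TGACGTCA in 5 (7.25%, against 1.79%) and the site TCAAGGTCA of oestrogen-related receptors in 2 (2.90%, against 0.423%). The median difference was -0.16 for the 16 genes with the ETS site and -0.17 for the 7 with the YY1 site. The palindromic glucocorticoid response element (AGAACA, 3 bases of any kind and TGTTCT) was in 0 of these promoters and in 3 of 32851 in the table. None of these motifs contains another. A match is a description of the letters in this window only, and all of these medians come from the processed signal, with which the subunits as a whole were lower, unlike with normexp.

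Complex I, the NADH dehydrogenase, had 4 of the 7 genes under an unadjusted p of 0.05, all accessory subunits, which surround the catalytic core. Ndufa3, an accessory subunit (probe at chr7:3242389-3242448 on mm7), had levels of 6.22, 6.15 and 5.89 in adrenalectomized hearts, against 6.43, 6.51 and 6.38 in sham hearts. The groups did not overlap, and adrenalectomized replicate 3 was the lowest array. Its difference was -0.35 (SE 0.12, adjusted p = 0.341), or 1.28-fold lower. Ndufa2, an accessory subunit of the matrix arm, had levels of 6.95, 6.73 and 6.80 in adrenalectomized hearts, against 7.19, 7.29 and 7.01 in sham hearts. These groups did not overlap either, with a gap of less than the spread within each group between adrenalectomized replicate 1 and sham replicate 3. The difference of Ndufa2 was -0.34 (SE 0.12, adjusted p = 0.357).

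Ndufs6, an accessory subunit that binds zinc and is needed to complete the NADH-oxidizing module, had 3 tested probes with like differences. Its brightest probe (chr13:70251833-70251892 on mm7) gave 7.47, 7.34 and 7.30 in adrenalectomized hearts, against 7.73, 7.72 and 7.52 in sham hearts. The groups did not overlap, and the difference was -0.29 (SE 0.11, adjusted p = 0.380). The other 2 probes gave differences of -0.32 and -0.31, but they overlap the same stretch of transcript in part and read the same RNA, so they do not add hearts. Ndufb7, an accessory subunit on the intermembrane side, gave 7.81, 7.50 and 7.64 in adrenalectomized hearts, against 8.11, 8.14 and 7.76 in sham hearts. Here the groups overlapped through sham replicate 3, and the difference was -0.35 (SE 0.15, adjusted p = 0.404). All 4 of these differences lay between 0.01 and 0.06 with normexp.

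Of the other complex I genes, 3 had groups that did not overlap, at larger p: Ndufa6 at -0.24, Ndufs7, a core subunit with an iron-sulfur cluster, at -0.21, and Ndufa4 at -0.24. Ndufa4 was first described in complex I and is now counted with complex IV, and is grouped here by its prefix. The 7 nuclear core subunits, which hold the flavin and the iron-sulfur clusters, had a median difference of -0.10 with 5 lower and 2 higher, and the 29 accessory subunits -0.18 with 26 lower and 3 higher, and the direction of the whole complex turned with normexp. Ndufv1, which binds NADH and the flavin, was at -0.10 (SE 0.11). Ndufs1, the largest iron-sulfur subunit, was at 0.06 (SE 0.13). The highest difference in complex I was 0.11 (SE 0.16, adjusted p = 0.817) for Ndufv2, also a core iron-sulfur subunit. The differences of these 3 core genes were smaller than their standard errors, and none differed beyond the spread between hearts.

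Complex II, succinate dehydrogenase, links the citric acid cycle to the chain and has only 4 subunits. Sdha, the flavoprotein that oxidizes succinate, had levels of 5.39, 5.05 and 5.00 in adrenalectomized hearts, against 5.01, 4.73 and 5.21 in sham hearts. The groups overlapped over most of their range, with adrenalectomized replicate 1 alone above all sham hearts, and the difference was 0.16 (SE 0.17, adjusted p = 0.721). Sdhb, the iron-sulfur subunit, had levels of 7.17, 6.90 and 6.70 in adrenalectomized hearts, against 7.02, 6.77 and 6.82 in sham hearts. Adrenalectomized replicate 1 was again the highest array and adrenalectomized replicate 3 the lowest, so this group spanned all of the sham values, and the difference was 0.06 (SE 0.15). The membrane anchors Sdhc and Sdhd were at 0.03 (SE 0.14) and -0.04 (SE 0.11). The median over the 4 genes turned to -0.06 without adrenalectomized replicate 1 and to -0.02 without sham replicate 2, so that it has no settled sign.

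Complex III, the cytochrome bc1 complex, had a lower mean for each of its 8 measured subunits, though for none with non-overlapping groups, and with normexp their median was 0.24. Uqcr, an older name of the small subunit gene Uqcr11, had levels of 8.19, 8.09 and 8.08 in adrenalectomized hearts, against 8.44, 8.56 and 8.10 in sham hearts. Sham replicate 3 fell among the adrenalectomized hearts while the other 2 sham hearts lay above them, and the difference was -0.25 (SE 0.14, adjusted p = 0.523). Uqcrb, a small subunit near the ubiquinone site, was at -0.18 (SE 0.13). The catalytic and core members had a median of -0.11: Uqcrc1 and Uqcrc2, the core proteins on the matrix side, were at -0.13 and -0.16, the Rieske iron-sulfur protein Uqcrfs1 at -0.09 and cytochrome c1, from Cyc1, at -0.05. Uqcrq, a small subunit, was at -0.10 (SE 0.14) by its brightest probe. A dimmer probe of Uqcrq stood well above background on 1 adrenalectomized and 3 sham arrays, so no difference is given for it.

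Cycs, the mobile carrier between complexes III and IV, had levels of 7.91, 7.71 and 7.66 in adrenalectomized hearts, against 7.84, 7.87 and 7.61 in sham hearts. The values of both groups covered nearly the same range, and the difference was -0.01 (SE 0.12, adjusted p = 0.978), while its other 2 probes both gave 0.06.

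Complex IV, cytochrome c oxidase, had 2 genes under an unadjusted p of 0.05. Cox7c, a small subunit, had levels of 4.53, 4.70 and 4.56 in adrenalectomized hearts, against 5.05, 5.06 and 4.73 in sham hearts. The groups did not overlap, but sham replicate 3 lay just above adrenalectomized replicate 2, and the difference was -0.35 (SE 0.13, adjusted p = 0.365). Its probe spans chr13:83112800-83113677 on mm7, more than its own length, so that it crosses an intron and reads spliced RNA. Cox6a2, the heart and skeletal muscle form of subunit VIa (chr7:124302204-124302263 on mm7), had levels of 9.24, 9.22 and 9.12 in adrenalectomized hearts, against 9.63, 9.64 and 9.27 in sham hearts. The groups did not overlap, again with sham replicate 3 closest to the adrenalectomized hearts, and the difference was -0.32 (SE 0.13, adjusted p = 0.403). Its spot was saturated on 1 array, which caps the level read there.

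Cox6a1, the form of subunit VIa found in most tissues, was the highest of the subunits. It had levels of 7.92, 8.56 and 8.20 in adrenalectomized hearts, against 8.03, 8.19 and 7.86 in sham hearts. The groups overlapped, and the difference of 0.20 (SE 0.18, adjusted p = 0.680) rested on adrenalectomized replicates 2 and 3, which shared slide 2, while adrenalectomized replicate 1 alone gave a difference of -0.10. The muscle form and the general form were thus at -0.32 and 0.20, but at 0.04 and 0.55 with normexp, so that their signs differed only with some settings, and the difference between the genes was not tested. The corresponding pair of subunit VIIa, the muscle form Cox7a1 and the general form Cox7a2, was at -0.15 (SE 0.14) and -0.07 (SE 0.13). Cox4i1, the main form of subunit IV, was at -0.16 (SE 0.14). Cox4i2, its hypoxia-responsive lung form, was at -0.01 (SE 0.18), and its probe stood well above background on 3 adrenalectomized and 2 sham arrays. Cox6b1 and its testis form Cox6b2 were at -0.14 and -0.18, and Cox5a and Cox5b, which are subunits with no second form here, at -0.23 and -0.24.

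ATP synthase held the gene with the smallest p of the 82, Atp5k, which encodes subunit e of the membrane part, a subunit known for its place where 2 synthases join. Atp5k had levels of 6.73, 6.66 and 6.65 in adrenalectomized hearts, against 7.24, 7.37 and 6.98 in sham hearts. The groups did not overlap, and the gap between them exceeded the whole spread of the adrenalectomized hearts. The difference was -0.51 (SE 0.13, adjusted p = 0.243), or 1.43-fold lower, which ranked 357 among the p-values of all 16948 genes. Its 1 probe spans chr5:107614717-107614972 on mm7, across an intron. The adjusted p was 0.0462 with array weights, the only alternative in which Atp5k passed, and ranged up to 0.571, with differences of -0.62 to -0.14. Against the same 3 sham hearts, all on slide 1, Atp5k was at -0.46 for adrenalectomized replicate 1, also on slide 1. It was at -0.54 for the other 2, on slide 2, where group and slide cannot be told apart.

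Atp5d, the delta subunit of the central stalk, had levels of 6.50, 6.39 and 6.18 in adrenalectomized hearts, against 6.64, 6.55 and 6.73 in sham hearts. These groups did not overlap, and sham replicate 3 was here the highest array, unlike for most subunits, and the difference was -0.28 (SE 0.12, adjusted p = 0.417). The catalytic head had smaller differences: Atp5a1 and Atp5b, the alpha and beta subunits, were at -0.04 (SE 0.12) and -0.07 (SE 0.14), and the gamma subunit Atp5c1 at -0.16 (SE 0.12). The other 2 probes of Atp5b gave 0.20 and 0.14, so that its direction depends on the probe. The 3 genes that encode the identical c subunit of the rotating ring were at -0.10 for Atp5g1, -0.24 for Atp5g2 and -0.23 for Atp5g3, and all 3 lay above 0 with normexp. The 4 genes of the peripheral stalk had a median of -0.16, with Atp5f1, its subunit b, as the only complex V gene with a higher mean, at 0.03 (SE 0.15).

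**Figure D2:**
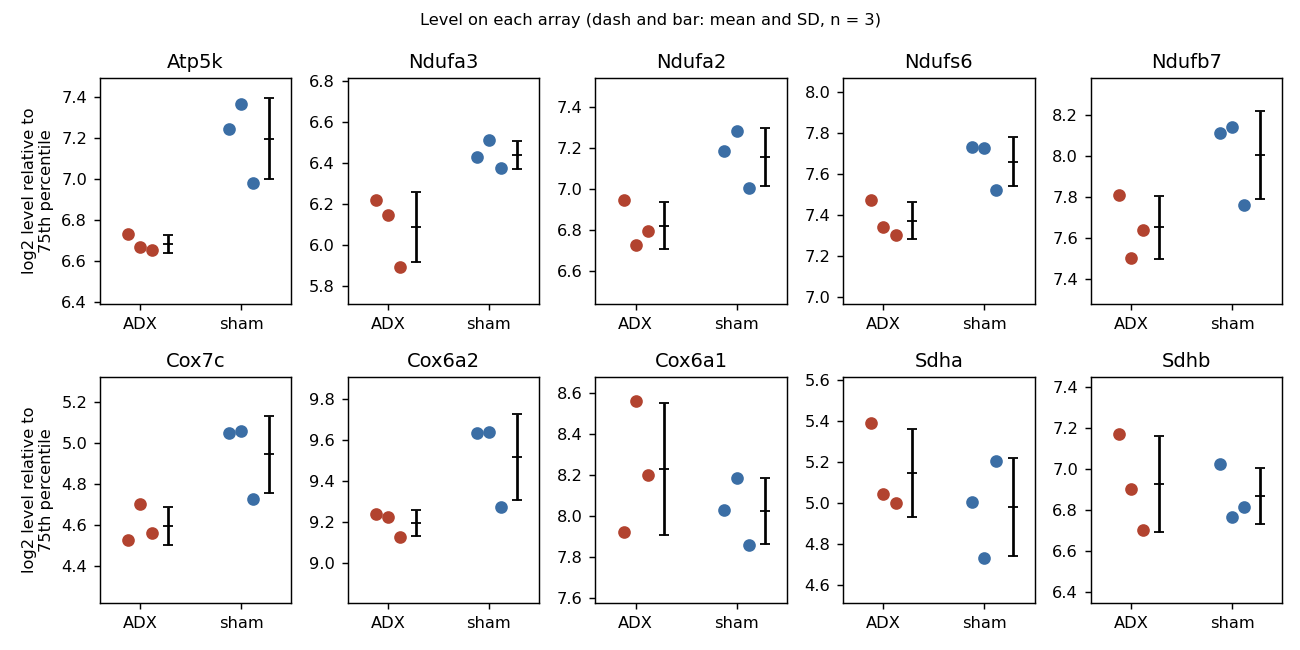
Level (log2 of intensity minus the log2 of the array's 75th percentile) of 10 genes on each array, with 3 adrenalectomized (ADX) hearts on the left and 3 sham hearts on the right of each panel, and the mean and SD of each group. The groups are apart for Atp5k, Ndufa3, Ndufa2, Ndufs6, Cox7c and Cox6a2 and overlap for Ndufb7, Cox6a1, Sdha and Sdhb, and with normexp the differences of all of these but Atp5k lay above 0.

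The 4 genes with a shared prefix that encode no subunit had a median difference of 0.12, with 3 higher means and 1 lower. Ndufaf1, which helps to assemble complex I, had levels of 3.65, 3.57 and 3.28 in adrenalectomized hearts, against 3.36, 3.18 and 3.27 in sham hearts. Its groups overlapped, and the difference was 0.23 (SE 0.13, adjusted p = 0.521). Atp5s was at 0.24 (SE 0.14) with 1 probe and at -0.01 with another, Cox7a2l at 0.0034 (SE 0.13) and Cox4nb at -0.04 (SE 0.10).

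Several genes whose current names would fit the name rule bear another name in the scanner files and fall outside it. Matching accessions to a current gene table found 13 probes on 9 such genes, of which 5 encode subunits and 4 encode complex I assembly factors. Of the 5 subunit genes 4 were tested. Among them Ndufv3, a small complex I subunit listed under a clone name, had a difference of -0.45 (SE 0.15, adjusted p = 0.328) with groups that did not overlap. Uqcr10, of complex III, was at -0.10, and the ATP synthase genes Atp5md and Atp5mpl at -0.05 and -0.01. The assembly factors went both ways, with Ndufaf3 at -0.12, with groups that did not overlap, and Ndufaf5 at -0.09. Ndufaf4 was at 0.02 and Ndufaf7 at 0.13. Of the 21 genes of the rule with several tested probes, 13 had probes of 1 sign and 8 of both signs, and the largest gap between probes of opposite sign was 0.28. Counted by probe, 86 were lower and 23 higher.

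The subunit levels also varied between the arrays within each group. Set against their sham means, the 77 subunits had median deviations of -0.06, -0.18 and -0.22 in adrenalectomized hearts, against 0.08, 0.09 and -0.16 in sham hearts. Sham replicate 3 thus lay among the adrenalectomized hearts, and it was the lowest sham array for 64 of the 77 subunits. It lay under adrenalectomized replicate 1 for 60 of them. The other 2 sham hearts were above all 3 adrenalectomized hearts for 52 of the 77 subunits (67.5%), against 19.3% of all genes. Without sham replicate 3 the subunit median was -0.24. In that fit 29 of 82 members were lower at an unadjusted limma p under 0.05, beside 8.84% of all genes. With all arrays 7 were, beside 5.99% of all genes. That count was 9 without adrenalectomized replicate 1 (beside 4.10% of all genes) and 3 without adrenalectomized replicate 2 (4.37%). It was 1 without adrenalectomized replicate 3 (6.40%), sham replicate 1 (3.58%) or sham replicate 2 (3.61%). In each case 0 members passed the adjusted threshold, and these differences in share were not tested. Each of the medians of complexes I, III, IV and V was likewise lowest without sham replicate 3, at -0.26, -0.22, -0.27 and -0.26, and that of complex III was -0.07 without sham replicate 1.

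**Figure D3:**
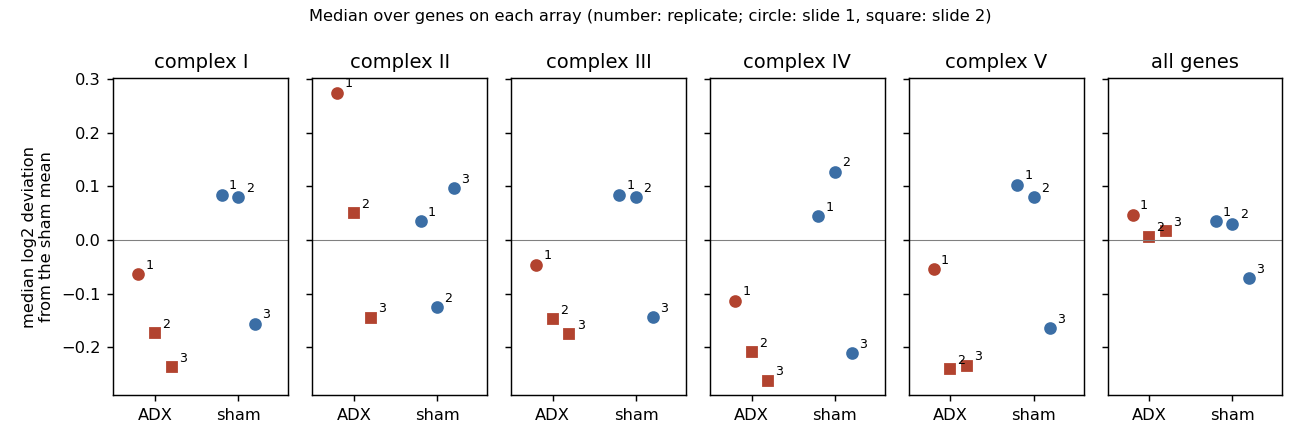
Median deviation (log2) of the subunits of each complex, and of all genes, from the sham mean on each array, with adrenalectomized (ADX) hearts left of sham hearts. Circles are arrays of slide 1 and squares those of slide 2. In complexes I, III, IV and V sham replicate 3 lies below adrenalectomized replicate 1, and in complex II the groups are mixed.

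The slides cut across part of this. Slide 1 held adrenalectomized replicate 1 and all 3 sham arrays, and slide 2 held adrenalectomized replicates 2 and 3. Scan batches followed the slides. With the slide as a block, which leaves adrenalectomized replicate 1 against the sham hearts, the subunit median was -0.06, and 54 members were lower and 28 higher. The medians within slide 1 were -0.06 for complex I, 0.27 for complex II, -0.05 for complex III, -0.11 for complex IV and -0.05 for complex V. For slide 2, which had no sham array, slide and group cannot be told apart. Subunits were lower than their sham mean for 53, 68 and 70 of 77 on the 3 adrenalectomized arrays.

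The subunits were also among the brightest features of the arrays. Of the 77, 75 lay among the brightest 10% of genes by mean level, a set of 1695 whose median difference was -0.03, while the other 9 bins of the same width had medians between 0.03 and 0.14. The 1618 genes of the brightest bin that are not members had a median of -0.02, against -0.15 for the 75 subunits. Above a mean level of 6, the median was -0.16 for 65 subunits and -0.08 for 345 other genes, and at or under 6 it was -0.06 for 12 subunits. With the processed signal, other genes of like brightness thus had medians of the same sign and of smaller size. The brightness of whole arrays moved with the subunits too. The 75th percentile was 768, 839 and 803 intensity units on the adrenalectomized arrays, against 668, 644 and 924 on the sham arrays, so that the 2 dimmest arrays had the highest subunit medians and sham replicate 3 was the brightest. The part of brightness in the result was not tested.

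**Figure D4:**
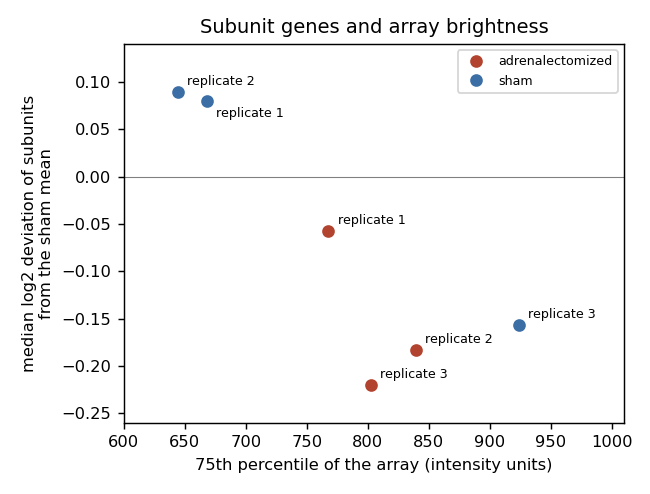
Median deviation (log2) of the 77 subunits from the sham mean against the 75th percentile of each array (intensity units before scaling), with adrenalectomized hearts in red and sham hearts in blue. The sham arrays at 644 and 668 lie above 0, and the 4 arrays at 768 or more lie below 0.

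The sign depended on how the spot background was corrected. With normexp on the mean spot and local background signals in place of the processed signal, the subunit median was 0.20, with 0.20 for complex I, 0.41 for complex II, 0.24 for complex III, 0.17 for complex IV and 0.20 for complex V. In that fit 6 of 82 members passed as higher and 1 as lower, beside 1220 higher and 4731 lower of 16948 genes. The members' share called higher lay near that of all genes, and their share called lower was below it. The members called higher included Sdha at 0.55, Ndufaf1 at 0.57, Ndufv2 at 0.47, Ndufs1 at 0.46 and Sdhb at 0.44 (adjusted limma p of 0.0245, 0.0241, 0.0406, 0.0449 and 0.0494). Cox4i2 was called lower, at -1.05 (adjusted p = 0.033). It is a dim gene, at a mean level of -4.35 in sham hearts with the processed signal, where its difference was -0.01. Quantile normalization kept the processed signal and gave a subunit median of -0.07. Complex II stayed above the other 4 complexes in both of these settings, a description that was not tested.

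**Figure D5:**
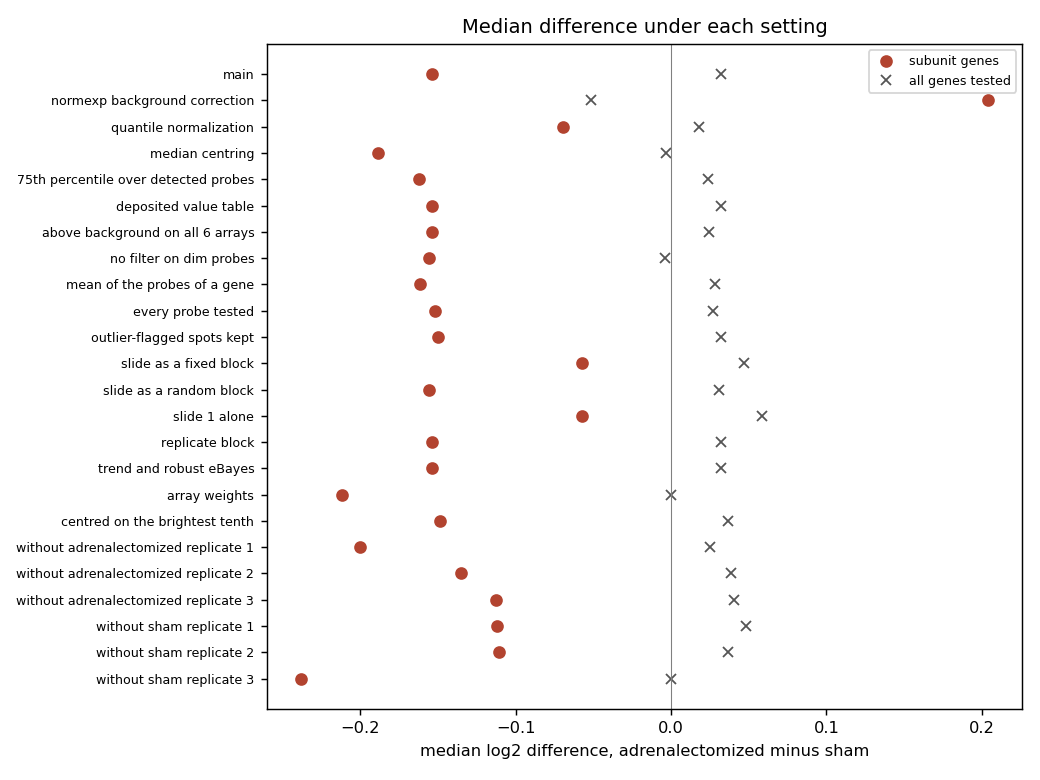
Median difference (log2, adrenalectomized minus sham) of the subunit genes (red dots) and of all genes tested (crosses) with the main processing and each alternative. The subunit median lies between -0.24 and -0.06 except with normexp background correction, where it is 0.20.

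Genes around the chain were read from lists of assembly factors, carriers and regulators, and none of their members passed the adjusted threshold with the processed signal. The assembly factors mostly had higher means, with normexp too: 7 of 9 for complex I (median 0.12), 2 of 2 for complex II (0.09), 3 of 4 for complex III (0.07), 12 of 19 for complex IV (0.08) and 4 of 5 for ATP synthase (0.07). The complex I list leaves out the Ndufaf genes given above, which went both ways. Cox19, a copper-handling factor of complex IV assembly, had the smallest p among the listed factors, with a difference of 0.27 (SE 0.14, adjusted p = 0.476). Of the enzymes of the citric acid cycle, 7 of 12 had a higher mean (median 0.03, but -0.0047 with median centring and 0.40, with 12 of 12 higher and 4 called, with normexp). Of the factors of mitochondrial transcription and replication, 11 of 12 had a higher mean (median 0.07). For these, 8 of 12 were higher with median centring and 9 of 12 with normexp, which called 1 lower. The carriers and channels that move ADP, phosphate and ATP had 3 of 8 higher and 5 lower (median -0.04, but 0.04 with quantile normalization and 0.33 with normexp).

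The PGC-1 coactivators and their partner receptors, which drive genes of the chain in the heart, had lower means for 7 of 7, with a median of -0.13, but for 3 of 7 and a median of 0.05 with normexp. Ppargc1a, the coactivator PGC-1α, had levels of 1.67, 1.87 and 2.40 in adrenalectomized hearts, against 2.79, 3.35 and 2.36 in sham hearts. The groups overlapped through adrenalectomized replicate 3 and sham replicate 3, and the difference was -0.86 (SE 0.29, adjusted p = 0.329). Of the genes listed for other ways for electrons to enter the chain, 2 of 6 had a higher mean, and 6 of 6 with normexp. These 6 include Nnt, a transhydrogenase that does not itself feed the chain, at -0.09. Gpd2, the mitochondrial glycerol phosphate dehydrogenase, was at 1.16 (SE 0.43, adjusted p = 0.363), with levels of 0.61, 2.40 and 1.86 in adrenalectomized hearts, against 0.22, 0.45 and 0.72 in sham hearts. Adrenalectomized replicates 2 and 3, the arrays of slide 2, were the high ones.

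Some markers of other cells also differed between the arrays. The median deviation of 9 adipocyte markers from the sham mean was 0.20, 2.03 and 1.76 in adrenalectomized hearts, against -1.18, 0.95 and 0.12 in sham hearts. Adrenalectomized replicates 2 and 3, the arrays of slide 2, had the lowest subunit medians and were the highest for this list. Sham replicate 2 came next for the list, at 0.95, but had the highest subunit median, at 0.09. Of the 9 adipocyte markers tested, 9 had a higher adrenalectomized mean, and 8 with normexp. Of the 7 brown fat markers, 2 (Elovl3 and Otop1) passed the filter only through the adrenalectomized group, so the list's count and median deviations are not given. The summed level of the list, in multiples of the 75th percentile, was 341 to 547 in adrenalectomized hearts, against 347 to 401 in sham hearts for brown fat, and 629 to 758, against 470 to 604, for adipocytes. A few bright genes carried these sums: Cox8b gave 52.2% to 84.3% of that for brown fat, and Fabp4 and Lpl together 81.5% to 97.8% of that for adipocytes. Without them the sums were 81.6 to 262 in adrenalectomized hearts, against 60.5 to 88.6 in sham hearts for brown fat, and 34.5 to 140.0, against 11.5 to 67.4, for adipocytes. The brown fat sums still hold Elovl3 and Otop1, whose highest levels were 0.83 and -0.51. Without Cox8b they rest mainly on Cidea, at 5.58 to 7.38, and Ucp1, at 1.11 to 6.42, and they were not tested. The defining marker Ucp1 of brown fat was above background in both groups, with a difference of 2.88, and Cidea was at 0.94. Cox8b (-0.18), Ppargc1a (-0.86) and Prdm16 (-0.24), on the same list, were lower, and none of these genes passed the adjusted threshold. Of the 10 adipocyte markers Lep was not tested. The 12 cardiomyocyte markers had a median of -0.13 with 10 lower (0.23 with 1 lower under normexp), and deviations of -0.05, -0.19 and -0.15, against 0.06, 0.04 and -0.12. Their summed level was 4602 to 4997 in adrenalectomized hearts, against 4793 to 5776 in sham hearts. All 7 atrial markers had lower means (median -0.61), and with normexp 7 were lower too (median -0.26, 1 called). For all 7 the groups did not overlap with the processed signal, beside 7.95% of all genes in this direction. Their summed level was 1108 to 1172 in adrenalectomized hearts, against 1406 to 2172 in sham hearts.

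The other lists differed in both directions. The 6 fibroblast markers had 6 lower means (median -0.22), but 2 lower and a median of 0.09 with normexp, and their summed level was 175 to 199 in adrenalectomized hearts, against 207 to 254 in sham hearts. The 6 endothelial markers had 5 lower means (median -0.23), but 3 lower and a median of 0.07 with normexp, with sums of 54.4 to 66.4 in adrenalectomized hearts, against 73.4 to 81.6 in sham hearts. For both lists the sums of the groups did not overlap. The 6 macrophage markers had 4 lower means (median -0.07, but 0.05 with normexp), with sums of 99.0 to 118 in adrenalectomized hearts, against 90.8 to 111 in sham hearts, which overlapped. The lymphocyte list had 6 of 7 higher means (median 0.45), but 2 of 7 with normexp (median -0.54), with sums of 1.81 to 4.46 in adrenalectomized hearts, against 1.40 to 2.30 in sham hearts. The red cell list had 3 of 3 higher means (median 0.77), with sums of 298 to 845 in adrenalectomized hearts, against 383 to 586 in sham hearts. The 7 skeletal muscle markers tested had 6 lower means (median -0.18), and none was called. With normexp 4 were lower (median -0.67), and all 4 were called. Of the list, Myh4 passed the filter only through the adrenalectomized group. Tnni2 had the largest difference, at -1.15 (SE 0.23), with groups that did not overlap, and Acta1 alone was higher, at 0.38. The sums of the list were 305 to 372 in adrenalectomized hearts, against 430 and 337 in sham replicates 2 and 3, which overlapped. They rest mainly on Myh4, at 7.73 to 8.41, and Ckm, at 6.00 to 6.35, which is also a cardiomyocyte marker. Sham replicate 1 is left out of these sums, since it had no value for Myh4, a bright gene of the list. The part of these cells in the differences of the subunits was not tested.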

How the data were processed

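RNA from heart was isolated with a column kit, and 50 ng was amplified and labelled with Cy3, per the labels' protocols. The deposited intensity of each spot is the processed signal of Agilent Feature Extraction 9.5.3.1 (protocol GE1-v5_95_Feb07), which the authors' scanner subtracted for background and detrended within the array, per the file headers, with probes placed on mm7. It is not normalized between arrays, and 15.3% to 22.0% of spots hold a surrogate for a low signal. All 45018 spots had identical intensities in the deposited value table and in the scanner files, so that table is linear and uncentred.

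From there, log2 intensities were scaled to the 75th percentile of each array, leaving out control spots and the 80 to 133 spots of an array marked as outliers, and averaging repeated spots. Of the arrays' spots, 57.7% to 66.8% stood well above background. Differences were fitted with limma 3.58.1 in R 4.3.3 (lmFit and eBayes, Benjamini-Hochberg over all genes, threshold 0.05), and the fit was tested on simulated data. A single gene's exact permutation test could not go below 0.1 with 3 against 3 hearts and was not used. Tables and figures were made with Python 3.11.15, numpy 2.4.6, pandas 2.3.3 and matplotlib 3.10.9.

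The members, gene lists, tests and alternatives were chosen with earlier results of these data known, and the settings and motifs are a description. Named genes were those with an unadjusted p under 0.05, the 2 of smallest p and the core genes of each complex, isoform sets, the 5 of largest difference per direction, members without a level, and the gene of smallest p in each surrounding list (some of these are not reported here). Others, such as Uqcrq, Ndufs7, Ndufa6, Ndufaf1's neighbours in name and the genes outside the name rule, were chosen after their values were seen, as were the motifs, the marker sums without their brightest genes, the split by brightness and the centring on the brightest 10% of genes.

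For same-numbered hearts, the correlations of the deviations from the group means were 0.16, 0.16 and -0.16 over 16883 genes for replicates 1, 2 and 3. Correlations of mixed sign cannot decide whether the numbers pair the hearts, and the main fit did not pair them. Alternatives were normexp (offset 50), quantile normalization, median centring, a percentile over detected probes, the deposited table, other filters and probe rules, outlier spots kept, the slide or replicate number as a block, slide 1 alone, other variance models and each array left out.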

Additional observations from a re-analysis of the deposited data

How the results depend on the processing

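With normexp background correction 1220 of 16948 genes were called higher and 4731 lower, and 6 of 82 members higher, a like share, and 1 lower. The medians were 0.20 for all subunits, 0.20 for complex I, 0.41 for complex II, 0.24 for complex III, 0.17 for complex IV and 0.20 for complex V. The cause of this turn in sign was not tested. Array weights called 119 genes higher and 170 lower, and 1 member lower, Atp5k. Quantile normalization called 2 genes higher and gave a median of -0.0041 for complex III. Median centring called 3 higher and 4 lower. Of the other settings, 41 genes were higher on slide 1 alone, where the complex II median was 0.27, the same as with the slide as a fixed block. A threshold of 0.1 called 23 genes higher and 11 lower, and the robust variance trend 7 lower. The count of genes higher was 0 with the percentile over detected probes, with the filter on all 6 arrays, without a filter, with the mean of probes, with every probe tested, with outlier spots kept, with the slide as a fixed block and with the array centre set on the brightest 10% of genes, which was chosen after seeing the data. The count of genes lower was 1 with the filter on all 6 arrays, without a filter, with every probe tested and with the slide as a fixed block. With the replicate number as a block, 0 genes were higher and 1 lower, 0 members passed and the medians were the same.

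Leaving out 1 array at a time gave 0 to 39 genes higher, 1 to 6 lower and 0 members in either direction. The medians ranged from -0.24 to -0.11 for all subunits, -0.26 to -0.11 for complex I, -0.06 to 0.13 for complex II, -0.22 to -0.07 for complex III, -0.27 to -0.12 for complex IV and -0.26 to -0.12 for complex V. No member passed in any setting except normexp and array weights, including at a threshold of 0.1. The random slide block had a correlation of -0.036 between arrays of a slide. With 3 hearts a group, differences of the size seen here lie near the standard error of a single gene.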
